A study of Mus musculus with 200 samples.

Results

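The Snrpn-Ube3a imprinted cluster of mouse chromosome 7 is represented in these tables by 7 gene symbols of 22033: Snrpn, Snurf, Ndn, Magel2, Mkrn3, Peg12 and Ube3a. The members were chosen by symbol. Snrpn and Snurf are read from the same transcript, so the 7 rows stand for 6 distinct loci. On the mm9 build the loci run over 3.13 Mb, in the order Ube3a (66484122 to 66562097), Snrpn (67127388 to 67285105), Ndn (69493163 to 69494814), Magel2 (69521865 to 69526526), Mkrn3 (69562479 to 69565039) and Peg12 (69606757 to 69609396). Ndn, Magel2, Mkrn3 and Peg12 are single-exon genes in the GENCODE annotation of that build, whereas Snrpn and Ube3a have up to 11 and 13 exons. Snurf has no entry of its own there.

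RNA was measured in whole mouse embryos at embryonic day 11.5, without extra-embryonic material, by 3SEQ, an RNA sequencing method that reads the 3' ends of polyadenylated transcripts. B6 is the inbred strain C57BL/6J and Cast is CAST/EiJ, a strain of another mouse subspecies. Reciprocal F1 embryos came from B6 mothers and Cast fathers (B6xCast, 8 embryos of 2 litters) or from Cast mothers and B6 fathers (CastxB6, 8 embryos of 2 litters). Backcross (N2) embryos came from B6 mothers and F1 fathers (B6xF1, 89 embryos of 17 litters) or from F1 mothers and B6 fathers (F1xB6, 65 embryos of 12 litters), and every F1 parent descended from a B6 female and a Cast male. No embryo carried an engineered allele or received a treatment. In B6xF1 embryos any Cast allele is therefore paternal, and in F1xB6 embryos it is maternal. Each N2 embryo is either B6/B6 or heterozygous at a gene, and the submitters deposited that genotype.

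Genes of this cluster are known for expression from 1 parental chromosome, controlled from an imprinting centre at the Snrpn promoter. Snrpn encodes SmN, a spliceosomal protein related to SmB, and its transcript also carries the small upstream Snurf reading frame. Ndn and Magel2 encode MAGE-family proteins, Mkrn3 a makorin RING-finger protein, and Peg12 a FRAT-family protein that binds GSK3. Ube3a encodes an E3 ubiquitin ligase that is known for maternal expression in neurons and for expression from both alleles in most other cells, and a non-coding transcript from the paternal chromosome runs antisense to it.

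The beginnings of the 2 reading frames on the Snrpn transcript are shown because they explain why the Snrpn and Snurf rows cannot be counted as independent. The transcript has 1970 bases in the GENCODE annotation. Its upstream frame, which is the Snurf frame by background knowledge, has 71 codons at bases 108 to 323, the Snrpn frame has 240 codons at bases 510 to 1232, and 186 bases separate them. Capitals mark the start codons.
Upstream frame: ATGgagcgaggaagggatcgcttacacttg
Snrpn frame: ATGactgtgggtaagagtagcaagatgctg
Both frames lie upstream of the same 3' end, the part that 3SEQ reads. The read counts of Snrpn and Snurf were equal in 151 of 154 N2 embryos and differed by at most 1 read in the others. In the F1 embryos they were equal in 2 of 16 and differed by at most 7 reads. Snurf is therefore not described further, and its values follow those of Snrpn.

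F1 libraries held 15703888 to 38234229 counted reads and N2 libraries 245220 to 5370322, so single values are less precise in N2 embryos. The N2 libraries fell into separate sets by sequencing lane. The 56 embryos of lanes J to N had 9 neuronal marker transcripts at a summed median of 1627 reads per 1000000 counted reads (RPM), against 921 RPM in the 98 embryos of lanes A to I. All 9 were detected in both sets, and Snap25 had a median of 0 in lanes A to I. Ttr, the most abundant of 7 extra-embryonic markers, had medians of 179 and 284 RPM, and the placental markers Prl3d1 and Prl2c2 were at 0 in every N2 embryo. Both kinds of mother occurred in both sets of lanes. Nothing in the sources says that litters were independent matings. The p-values below measure the spread between these embryos, except those of binomial tests on pooled votes, which cover counting error of votes only.

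Allele origin was read from votes. A read that covers strain differences gives its allele a vote, shared over the differences it covers, and the B6 allele fraction is the B6 share of all votes. In F1 embryos a paternally expressed gene has a fraction near 0 in B6xCast and near 1 in CastxB6. Snrpn had a lowest fraction of 0, a median of 0.000961 and a highest of 0.00169 over the 8 B6xCast embryos. Over the 8 CastxB6 embryos the lowest was 0.997, the median 0.999 and the highest 1. All embryos of one cross thus lay at the opposite end of the scale from all embryos of the other. In total 13.6 of 13700 Snrpn votes were maternal, or 0.102% after rounding to whole votes (95% exact interval 0.0559 to 0.171).

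Of the MAGE genes, Ndn had a fraction of 0 in 7 of 8 B6xCast embryos and 0.0118 in the other. In CastxB6 it was 1 in 7 of 8 embryos and 0.970 in the other. Each exception rests on 1 maternal vote, and 2 of 771 Ndn votes were maternal (0.259%, interval 0.0314 to 0.934). Magel2 was at 1 in all 8 CastxB6 embryos. In B6xCast it was at 0 in 5 of 8 embryos, with 0.0556, 0.143 and 0.25 in the others, which held 18, 7 and 8 votes. The 4 maternal votes among 175 gave Magel2 the highest maternal share of the paternally expressed members, 2.29% (interval 0.626 to 5.75). This interval overlapped with those of Ndn, Mkrn3 and Peg12, so the order of these genes is not settled.

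Mkrn3 had a fraction of 0 in all 8 B6xCast embryos and 1 in the 7 CastxB6 embryos with a vote. None of its 89 votes was maternal, with an exact 95% interval of 0 to 4.06%. Peg12 was at 0 in 7 of 8 B6xCast embryos, with 0.1 in the other. In CastxB6 it was at 1 in 6 of 8 embryos, with 0.974 and 0.984 in the others. The maternal share of Peg12 was 1.12%. For these 5 loci the crosses did not overlap in any embryo.

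Ube3a behaved differently from its neighbours. Its B6 fraction ranged from 0.353 to 0.8 in B6xCast, with a median of 0.564, and from 0.397 to 0.582 in CastxB6, with a median of 0.5. The ranges overlapped, and both alleles were seen in all 16 embryos. The means were 0.561 ± 0.131 and 0.490 ± 0.054 (SD, n = 8 each), a difference of 0.0713 (exact permutation test, two-sided, p = 0.185; q = 0.620 over all genes). The maternal share over both crosses was 53.1% of 695 votes (interval 49.3 to 56.9). The widest spread lay in B6xCast litter 3, whose embryos held 15 to 17 Ube3a votes each. Whether reads were assigned by strand is not given in the sources used here, so reads of Ube3a and of its antisense partner cannot be told apart.

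**Figure D1:**
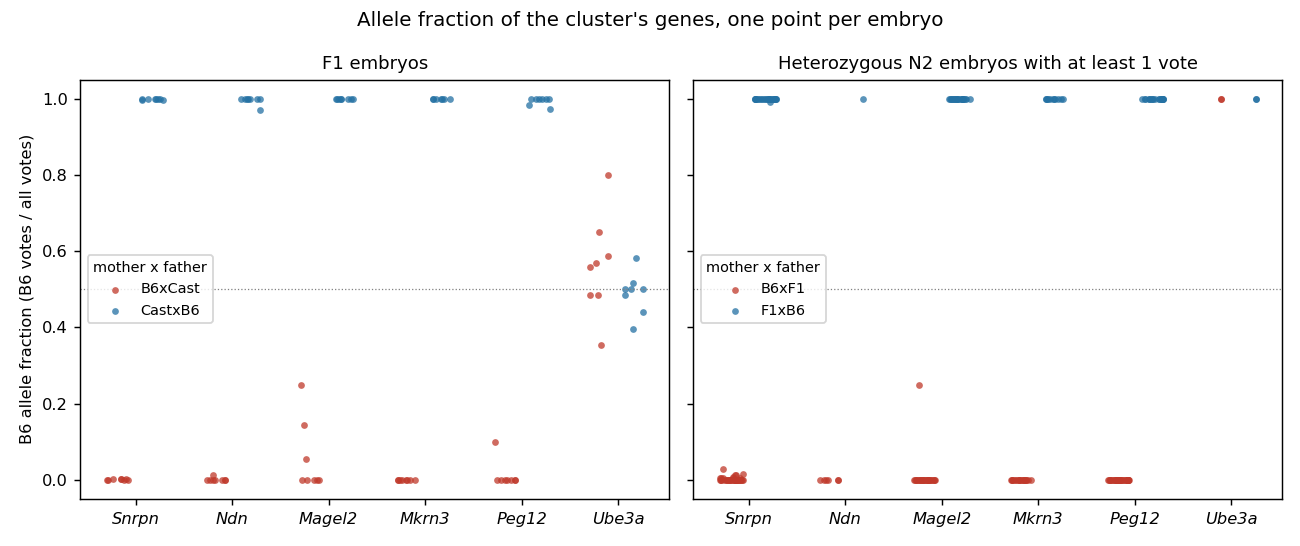
B6 allele fraction (B6 votes over all votes) of each embryo at 6 genes, for F1 embryos by cross (left) and for heterozygous N2 embryos with at least 1 vote (right); red points have a B6 mother and blue points a Cast or F1 mother, and the dotted line marks equal alleles. Snrpn, Ndn, Magel2, Mkrn3 and Peg12 lie at or near 0 with a B6 mother and at or near 1 otherwise, while Ube3a in F1 embryos spreads from 0.353 to 0.8.

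Against equal alleles in pooled votes, with Bonferroni adjustment over the 11913 genes with at least 20 votes in each cross, 5 of 6 loci were called as higher from the father in both crosses (adjusted p under 0.01). Ube3a was not called in either direction. Over all genes, those on the X chromosome included, 28 were called paternal (0.235%) and 134 maternal (1.12%). The exact permutation test over 8 against 8 embryos gave p = 0.000155, the smallest it can give, for Snrpn, Ndn, Magel2 and Peg12 (q = 0.0206 over 10859 genes, of which 1.34% passed 0.05). In this set 0.313% of genes had crosses that did not overlap and were lower with a B6 mother. Mkrn3 was outside it because 1 embryo had no vote, and its own exact test over 8 against 7 embryos gave p = 0.000155. With a quasi-binomial test that takes the spread between embryos into account, Snrpn kept its call and Ndn, Magel2, Mkrn3 and Peg12 did not. Over all genes that test made 16 calls, against 162 in either direction with the binomial test. Mkrn3 lost its call although its fraction did not vary within either cross, so the loss does not show a spread between embryos. Without B6xCast litter 3 the binomial calls of Magel2 and Mkrn3 were lost. Without any one litter the permutation q was 0.0835 to 0.250. With fewer embryos the smallest p of that test is larger, and no gene of the whole set passed, so this cannot show dependence on a litter.

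The surrounding genes were read in the same way, but too many of them lacked votes to place an edge of the paternal pattern. Of 25 neighbouring symbols on chromosome 7, 22 had rows, 12 had enough votes and 0 were called imprinted, whereas 6 of 6 tested genes known as paternally expressed elsewhere were called paternal (Peg3, Mest, Peg10, Sgce, Dlk1 and Plagl1). Atp10a, a phospholipid-transporting ATPase gene beside Ube3a, had mean fractions of 0.559 ± 0.130 and 0.580 ± 0.109 (n = 8 each). A230057D06Rik, a non-coding gene of the cluster, had 21 votes in B6xCast and 3 in CastxB6, below the vote minimum in the latter, and all 24 were paternal. Of the core Sm genes of the spliceosome, 0 of 5 tested were called. Of 8 tested MAGE genes and partners, 3 were called as higher from the mother, and all 3 (Maged1, Maged2 and Mageh1) are X-linked. Maged1 ranged from 0.264 to 0.9996 over the B6xCast embryos. The paper kept its later analyses to autosomes, and these X-linked calls are not read as imprinting here.

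The heterozygous N2 embryos gave a separate set of embryos for the same question. Their genotypes were called by the paper from allele reads of the genes, smoothed along the chromosome. Votes of the members could thus enter the choice of heterozygous embryos. The N2 allele tests in this and the next paragraph are therefore not independent of that choice. Snrpn had a lowest fraction of 0, a median of 0 and a highest of 0.0278 in 37 embryos with a B6 mother. In 26 embryos with an F1 mother the lowest was 0.991, the median 1 and the highest 1. The means were 0.00273 ± 0.00582 and 1.000 ± 0.00181 (SD), and the groups did not overlap (permutation test, p = 1e-05, the smallest it can give). In all, 13 of 8396 Snrpn votes were maternal (0.155%, interval 0.0825 to 0.265). In B6/B6 embryos, which have no Cast allele, 0.185% of 12463 votes were called Cast (interval 0.117 to 0.277), and this interval overlapped with that of the maternal share. Intervals cover counting error only.

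Fewer N2 votes fell on the other loci. With at least 10 votes per embryo, Magel2 was at 0 in 5 embryos with a B6 mother and at 1 in 2 with an F1 mother (exact permutation p = 0.0476, the smallest possible). Mkrn3 had 2 embryos on each side, where the exact permutation test cannot go below p = 0.333, and Peg12 had 8 against 0. With at least 1 vote, Peg12 was at 0 in all 37 embryos with a B6 mother and at 1 in all 19 with an F1 mother. Mkrn3 was at 0 in 19 of 19 and at 1 in 11 of 11, and Magel2 at 0 in 26 of 27, with 0.25 in the other, and at 1 in 22 of 22 (p = 1e-05 by permutation for each). Ndn had 6 votes in B6xF1 and 1 in F1xB6, all paternal, and Ube3a only 4 votes in heterozygous embryos, which is too few to compare. Those 4 were all B6, 2 from the mother and 2 from the father.

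One N2 embryo carried a crossover inside the cluster. Its deposited genotype was B6/B6 at Ube3a and Snrpn and heterozygous from Ndn to Peg12, with a B6 mother. It had 70 B6 votes and 1 Cast vote at Snrpn. At Magel2 it had 0 B6 and 9 Cast votes, at Mkrn3 0 and 5, and at Peg12 0 and 18.5. The votes changed allele between the same genes as the genotype did. The paper called genotypes from the share of B6 reads at each gene, smoothed along the chromosome, so this match is not independent.

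The allele fraction of Snrpn was also set against somite number, the count of body segments that marks stage. With a B6 mother Spearman's rho was -0.07 and Pearson's r -0.14 (n = 34, permutation p = 0.706 and 0.440). With an F1 mother they were -0.13 and -0.12 (n = 23, permutation p = 0.741 for both). When the 2 embryos most remote in stage were dropped, r was -0.10 and -0.13. The Benjamini-Hochberg q was 0.741 for all 4, and no relation was detected.

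Reads that named an allele were not an equal share of all reads. In F1 embryos there were 20.9 votes per 100 reads at Snrpn, 22 at Magel2, 20.9 at Mkrn3, 10.1 at Peg12 and 22.1 at Ube3a, but 1.26 at Ndn. In N2 embryos Ube3a had 0.158 votes per 100 reads and Ndn 0.0259, while Snrpn had 52.0. The allele fractions of Ndn and of N2 Ube3a thus describe a small part of the reads counted for those genes. Ndn reads ranged from 485 to 15099 over the F1 embryos and Ndn votes from 23 to 85. The 5 embryos with over 5000 reads held 23 to 67 votes and the 11 others 33 to 85, so votes did not follow reads. At Snrpn, embryos with more reads also had more votes.

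**Figure D2:**
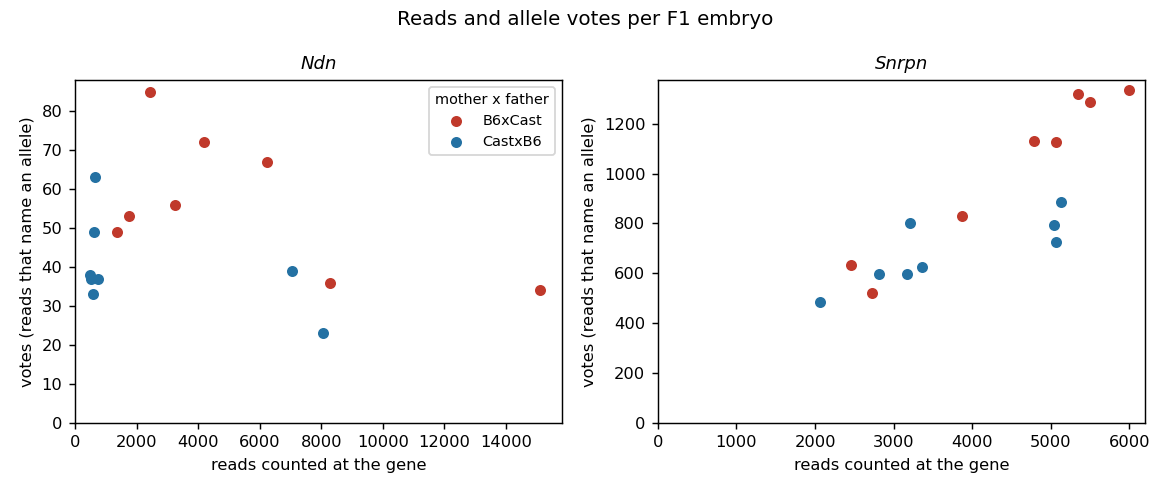
Reads counted (horizontal axis) and allele votes (vertical axis) at Ndn and Snrpn, 1 point per F1 embryo, red for B6xCast and blue for CastxB6. Snrpn votes rise with reads, whereas Ndn reads range from 485 to 15099 with no matching rise of votes from 23 to 85.

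Total levels were then compared between the F1 crosses with edgeR's quasi-likelihood test on counts (14625 genes, Benjamini-Hochberg q under 0.05). In whole embryos, fewer cells of a type and less RNA per cell cannot be told apart. Snrpn was the only abundant member that passed this test. It ranged from 142 to 176 RPM in B6xCast, with a median of 170.1, and from 91.7 to 147 RPM in CastxB6, with a median of 132. The means were 163 ± 14.8 and 130 ± 17.3 RPM (SD, n = 8 each), a log2 ratio of 0.26 ± 0.09 (SE, q = 0.0352, edgeR). With any one litter left out it did not pass (q = 0.0769 to 0.204). The lowest B6xCast embryos overlapped with the highest CastxB6 embryos. Across all genes 12.3% were higher and 13.6% lower in B6xCast, or 14.2% and 9.18% when libraries were scaled by total alone.

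Mkrn3 was lower in B6xCast. It ranged from 0.207 to 1.06 RPM there, with a median of 0.679, and from 0.609 to 2.40 RPM in CastxB6, with a median of 1.14. The log2 ratio was -0.92 ± 0.32 (q = 0.0416, edgeR), from 426 Mkrn3 reads in all. The high values came from CastxB6 litter 2, at 1.35 to 2.40 RPM. It was the only F1 litter without a run on the GAIIx sequencer, so litter and sequencing run cannot be told apart. Without that litter the log2 ratio was -0.25 (q = 0.560), without B6xCast litter 3 or 5 q was 0.0981 and 0.186, and without CastxB6 litter 1 it was 0.0119. With library totals in place of TMM scaling q was 0.0723, with no filter beyond 1 read it was 0.0612, and counted as votes per 1000000 reads the log2 ratio was -0.05.

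Ndn had the widest spread. It ranged from 77.5 to 470.5 RPM in B6xCast, with a median of 133, and from 15.6 to 267 RPM in CastxB6, with a median of 28.5. In CastxB6, 6 embryos lay at 15.6 to 30.6 RPM and the other 2 at 233 and 267. The log2 ratio of 1.10 ± 0.63 did not pass the test (q = 0.201, edgeR). Ndn votes per 1000000 reads, with means of 2.23 ± 0.850 and 1.49 ± 0.550, also did not (ratio 1.49, exact permutation p = 0.0614).

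Ube3a, Magel2 and Peg12 had log2 ratios of 0.11 ± 0.16, -0.18 ± 0.15 and -0.05 ± 0.17 and were not called. Ube3a lay between 4.99 and 11.0 RPM in both crosses together, Magel2 between 1.06 and 2.77 RPM, and Peg12 between 5.37 and 11.9 RPM. In all 3 genes the crosses overlapped. The stages of the litters differed, with 48 to 63 somites in B6xCast and 41 to 48 in CastxB6, and the summed neuronal markers had medians of 1293 and 1127 RPM. Their part in the Snrpn and Mkrn3 differences was not tested. Between the 2 litters nearest in stage, Snrpn had a log2 ratio of 0.30 (q = 0.0964) and Mkrn3 -1.48 (q = 0.0272).

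**Figure D3:**
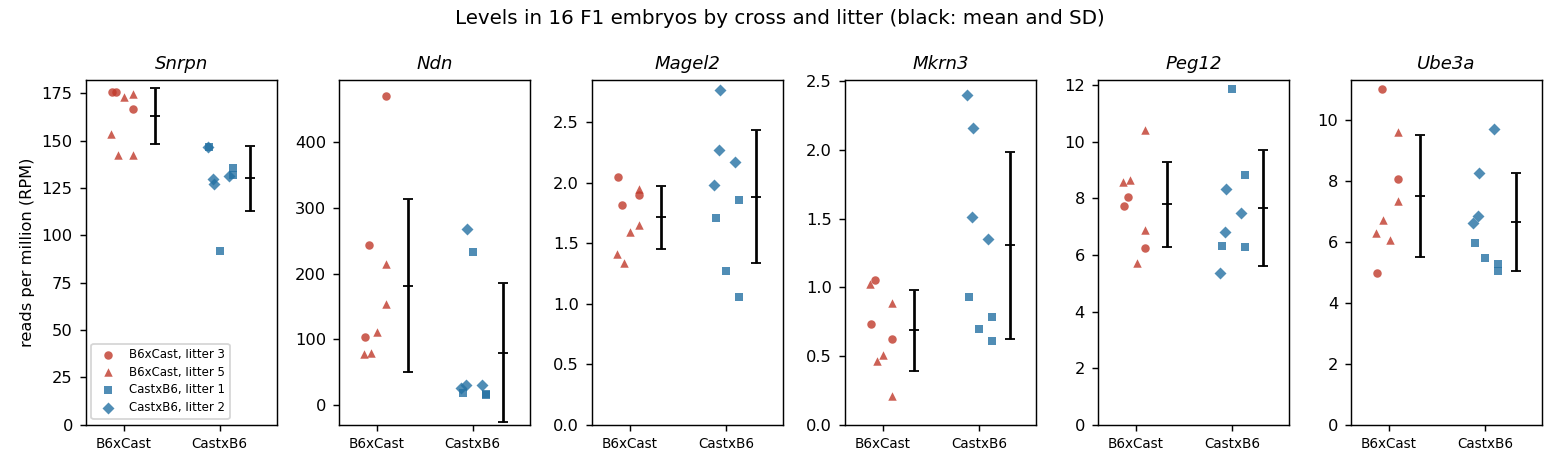
RPM of 6 genes in each F1 embryo by cross, with a marker shape for each litter and the mean and SD in black. Snrpn lies mostly higher in B6xCast (142 to 176 RPM against 91.7 to 147), the high Mkrn3 values belong to CastxB6 litter 2, and Ndn spreads from 15.6 to 470.5 RPM.

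Of the genes around the members, 4 of 16 tested neighbours differed between the F1 crosses, 2 in each direction, where 12.3% of all genes were higher and 13.6% lower in B6xCast, so the share was close to that over all genes. A230057D06Rik was higher in B6xCast (log2 3.56 ± 0.41) and Apba2 was too (0.27 ± 0.09), while Cyfip1 and Atp10a were lower (-0.52 ± 0.12 and -0.38 ± 0.13). Of 7 Sm core genes, 3 were lower in B6xCast (Snrpd1, Snrpd3 and Snrpf, log2 -0.69 to -0.84) and 0 were higher, opposite in sign to Snrpn. The median log2 ratio of the 7 was -0.77. Of the 9 MAGE genes and partners, Maged2 and Ndnl2 were called, 1 in each direction. Of 7 paternally expressed genes elsewhere, Mest and Dlk1 were called, again 1 in each direction, and neither count is far from the share over all genes.

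Divided by exon length, the mean F1 levels were 79.2 ± 76.8 RPM per kb for Ndn, 70.7 ± 11.1 for Snrpn, 2.93 ± 0.656 for Peg12 and 1.39 ± 0.354 for Ube3a. Mkrn3 stood at 0.389 ± 0.234 and Magel2 at 0.386 ± 0.0907 RPM per kb (SD, n = 16). Ndn and Snrpn did not differ beyond their spread, nor did Mkrn3 and Magel2. As 3SEQ reads 3' ends, this scale is approximate.

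In N2 embryos the levels of most members differed widely between the lane sets. Ube3a ranged from 0.968 to 13.6 RPM in the 98 embryos of lanes A to I, with a median of 5.67, and from 17.4 to 262 RPM in the 56 embryos of lanes J to N, with a median of 71.8. The sets did not overlap. The ratio of means, lanes J to N over A to I, was 13.5 for Ube3a, 35.3 for Mkrn3, 7.98 for Magel2, 6.27 for Peg12, 6.04 for Ndn and 0.868 for Snrpn, against a median of 1.31 over 12722 autosomal genes. Among those genes Mkrn3 lay at percentile 99.8 and Ube3a at 96.0. Magel2, Peg12 and Ndn lay at 90.3, 86.9 and 86.2, so many other genes rose as much, and Snrpn lay at 27.1. Mkrn3 ranged up to 2.35 RPM in lanes A to I and from 2.37 RPM in lanes J to N, and its median was 0.364 RPM in lanes A to I and 16.2 RPM in lanes J to N. Peg12 moved from a median of 5.32 to 33.5 RPM and Magel2 from 0.791 to 7.63 RPM. The sum of neuronal markers rose with the same lanes, and its part in these ratios was not tested. These ratios carry no test, because lane was not a condition of the study.

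Ndn had a second lane pattern of its own. Its median was 10.4 to 16.3 RPM in lanes A, B, C, H and I, but 151 in lane D, 79.7 in lane E, 111 in lane F and 152 RPM in lane G. Lanes A to G shared a flowcell. Snrpn had lane medians of 105 to 116 RPM in lanes D to G and 119 to 137 RPM in lanes A, B, C, H and I, the other way round. The lane medians of Ube3a, Magel2, Mkrn3 and Peg12 overlapped between these lanes.

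**Figure D4:**
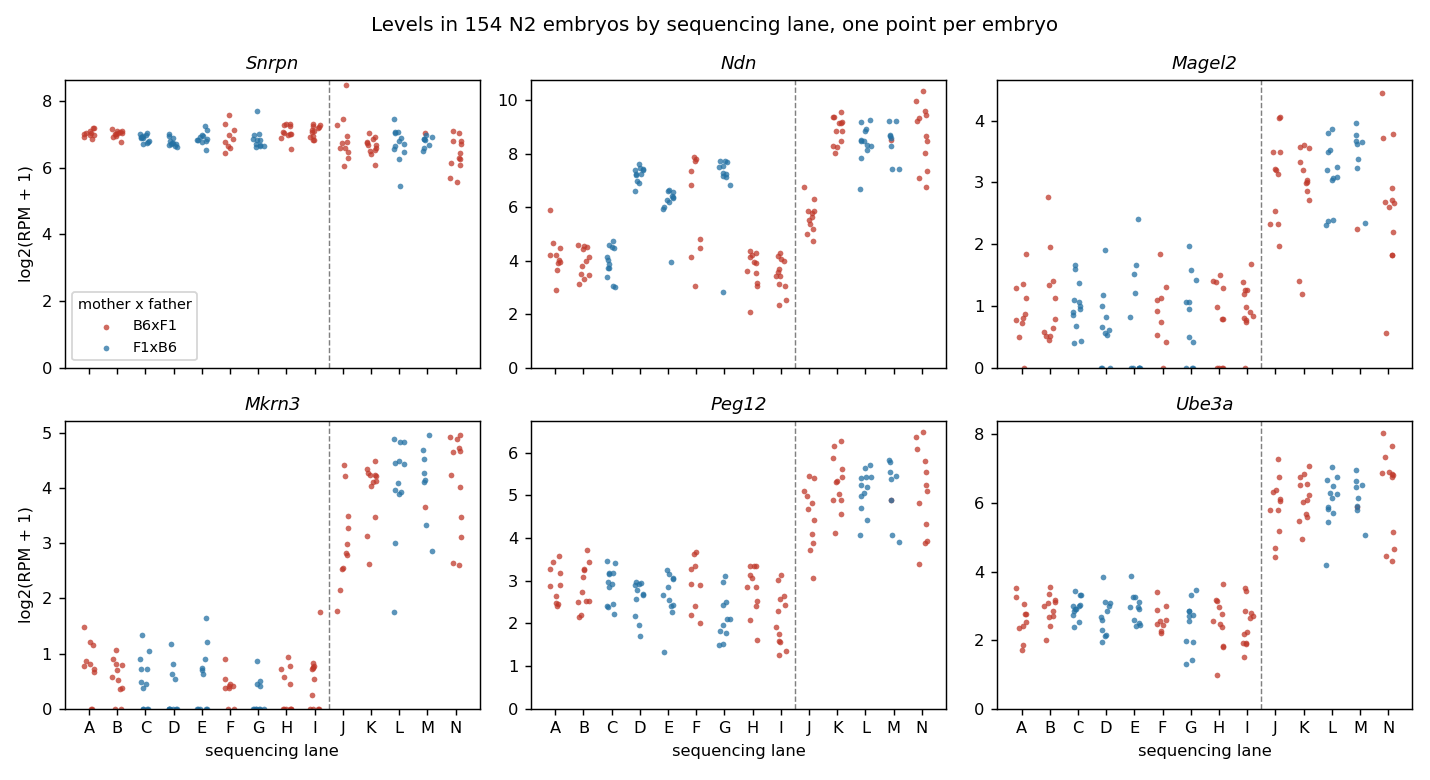
log2(RPM + 1) of 6 genes in 154 N2 embryos by sequencing lane, 1 point per embryo, red for B6xF1 and blue for F1xB6, with a dashed line between lanes A to I and J to N. Ube3a, Mkrn3, Magel2 and Peg12 step up in lanes J to N, Snrpn does not, and Ndn is also high in lanes D to G.

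By the kind of mother, 0 of 5 members above 5 RPM on average passed (Mann-Whitney test, Bonferroni adjusted p under 0.01), against 490 of 9733 autosomal genes (5.03%). The unadjusted p was 0.0295 for Snrpn and 0.00390 for Ndn, and over 0.05 for the other 3. edgeR, DESeq2 and limma voom with lane as a block also gave adjusted p = 1 for each member. Lanes were mostly of 1 kind of mother, so the values were read within each lane set. In lanes A to I Snrpn had a median of 131 RPM with a B6 mother and 113 RPM with an F1 mother, a log2 ratio of 0.18 that did not pass (adjusted p = 0.0168, where 13.4% of genes passed 0.01). All 5 B6-mother lanes lay above all 4 F1-mother lanes in mean log2 level, by a narrow margin (6.92 in the lowest B6-mother lane and 6.89 in the highest F1-mother lane, exact permutation p = 0.0159). By median RPM they overlapped, with 119 RPM in lane C (F1 mothers) and 116 RPM in lane F (B6 mothers). In lanes J to N its log2 ratio was -0.03 (adjusted p = 1, where 0.0103% of genes passed).

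Ndn in lanes A to I had a median of 14.9 RPM with a B6 mother and 94.9 RPM with an F1 mother (log2 ratio -1.60, adjusted p = 0.0186, not past 0.01). Lanes D, E and G held F1-mother embryos and lane F B6-mother embryos. Over lane means the exact permutation p was 0.0794, and in lanes J to N the log2 ratio was -0.02 (adjusted p = 1). Ube3a, Mkrn3 and Peg12 had log2 ratios of -0.12, 0.12 and 0.16 in lanes A to I and 0.16, -0.32 and -0.01 in lanes J to N. For the neighbours 1 of 8 passed (Mtmr10), and 0 of 7 Sm core genes did.

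Levels were related to somite number within each lane set, since a pooled correlation would mix the sets. Peg12 fell with more somites in lanes A to I (43 to 57 somites, n = 92): Spearman's rho was -0.29 (permutation p = 0.00527, q = 0.0304 over 10040 genes) and Pearson's r -0.32 (permutation p = 0.00193). When the 2 embryos most remote in stage were dropped, r was -0.29. In that set 14.7% of genes rose and 6.77% fell. In lanes J to N (n = 55) Peg12 had a rho of -0.25 (permutation p = 0.0655, q = 0.215), an r of -0.30 (permutation p = 0.0267) and r -0.31 after the same 2-embryo reduction. With lane regressed out in lanes A to I its rho was -0.23 (q = 0.154). An edgeR slope on somite number over both lane sets, without lane in the model, was -0.11 log2 per somite for Peg12 (q = 0.0243) and -0.14 for Ndn (q = 0.0299).

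Ndn in lanes A to I gave a rho of -0.21 (permutation p = 0.0432, q = 0.134) beside an r of -0.16 (permutation p = 0.124). In lanes J to N its rho was -0.32 (permutation p = 0.0198, q = 0.110) beside an r of -0.36 (permutation p = 0.00727). With 2 embryos dropped in the same way r was -0.13 and -0.35. With lane regressed out in lanes A to I, rho was 0.01. Snrpn had rho 0.13 and 0.16, Ube3a -0.05 and -0.09, and Mkrn3 -0.09 and -0.09, and none passed, in sets where 14.7% and 5.83% of genes rose and 6.77% and 3.48% fell. The summed neuronal markers had rho 0.24 in both sets. The sum of the extra-embryonic list, nearly all of it Ttr, had rho 0.76 and 0.33. The other 6 markers of that list had medians of 0, so the sum follows Ttr alone and is not a measure of extra-embryonic tissue.

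The embryo's own genotype showed a difference at Peg12 and Ndn. For each gene, heterozygous embryos were compared with B6/B6 embryos of the same cross on log2(RPM + 1) minus the lane mean, a scale that understates changes of low genes (rank-sum test, q over 9531 autosomal genes). In B6xF1, where the Cast allele is paternal and is the expressed allele of an imprinted member, Peg12 had a median of 10.4 RPM in 38 heterozygous embryos (lowest 2.35, highest 88.8) and 6.44 RPM in 51 B6/B6 embryos (lowest 1.40, highest 48.5). The groups overlapped, and the lane-centred difference was 0.62 ± 0.12 (SE, q = 5.26e-05). Ndn had medians of 27.5 and 21.1 RPM and a difference of 0.63 ± 0.18 (q = 0.00240). Both genes were higher in the heterozygous embryos in 8 of 8 lanes, by 0.17 to 1.08 for Peg12 and by 0.04 to 1.16 for Ndn. Of all genes, 16.4% passed in this cross. The Ndn call was lost with the litter mean subtracted (0.34, q = 0.0808) and with no lane correction (q = 0.208), whereas Peg12 passed in both. In lanes J to N alone neither passed, with differences of 0.65 for Peg12 (q = 0.198) and 0.63 for Ndn (q = 0.347).

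In F1xB6, where the Cast allele is maternal and the expressed allele is B6 in every embryo, neither passed. Peg12 had medians of 6.03 RPM in 26 heterozygous and 7.46 RPM in 38 B6/B6 embryos, a difference of -0.11 ± 0.12 (q = 0.313). Ndn had medians of 105 and 159.9 RPM and a difference of -0.37 ± 0.21 (q = 0.149), or -0.11 ± 0.17 without lane G, where 1 heterozygous embryo lay far below the rest. In this cross 17.3% of genes passed. Heterozygous embryos were higher in 2 of 5 lanes for Peg12 and in 1 of 5 for Ndn.

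The difference between the crosses was tested itself. It was 1.00 ± 0.26 for Ndn and 0.73 ± 0.18 for Peg12 on the log2 scale (permutation p = 9e-05 and 0.00013). With all 9531 genes considered, q was 0.173 and 0.147, so neither passed, and 2 genes did (0.021%). With the litter mean subtracted it was 0.64 ± 0.35 for Ndn and 0.47 ± 0.23 for Peg12 (unadjusted linear-model p = 0.0665 and 0.0437, against 0.000217 and 0.000108 with the lane mean; permutation was not run there). Without lane G the difference was 0.74 ± 0.26 for Ndn and 0.72 ± 0.19 for Peg12. In lanes A to I it was 1.23 and 0.75, and in lanes J to N 0.48 and 0.64.

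Snrpn showed no such difference: 0.01 ± 0.07 in B6xF1 and -0.03 ± 0.08 in F1xB6. Its own medians in B6xF1 were 127 RPM in 37 heterozygous and 120 RPM in 52 B6/B6 embryos. Ube3a had -0.15 ± 0.15 and 0.19 ± 0.13, and Mkrn3 0.01 ± 0.12 and 0.20 ± 0.14. Magel2, which lay below 5 RPM on average and outside the set of genes tested, had -0.08 ± 0.14 and 0.16 ± 0.16. The intervals around these values still allow differences of up to 2 SE.

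**Figure D5:**
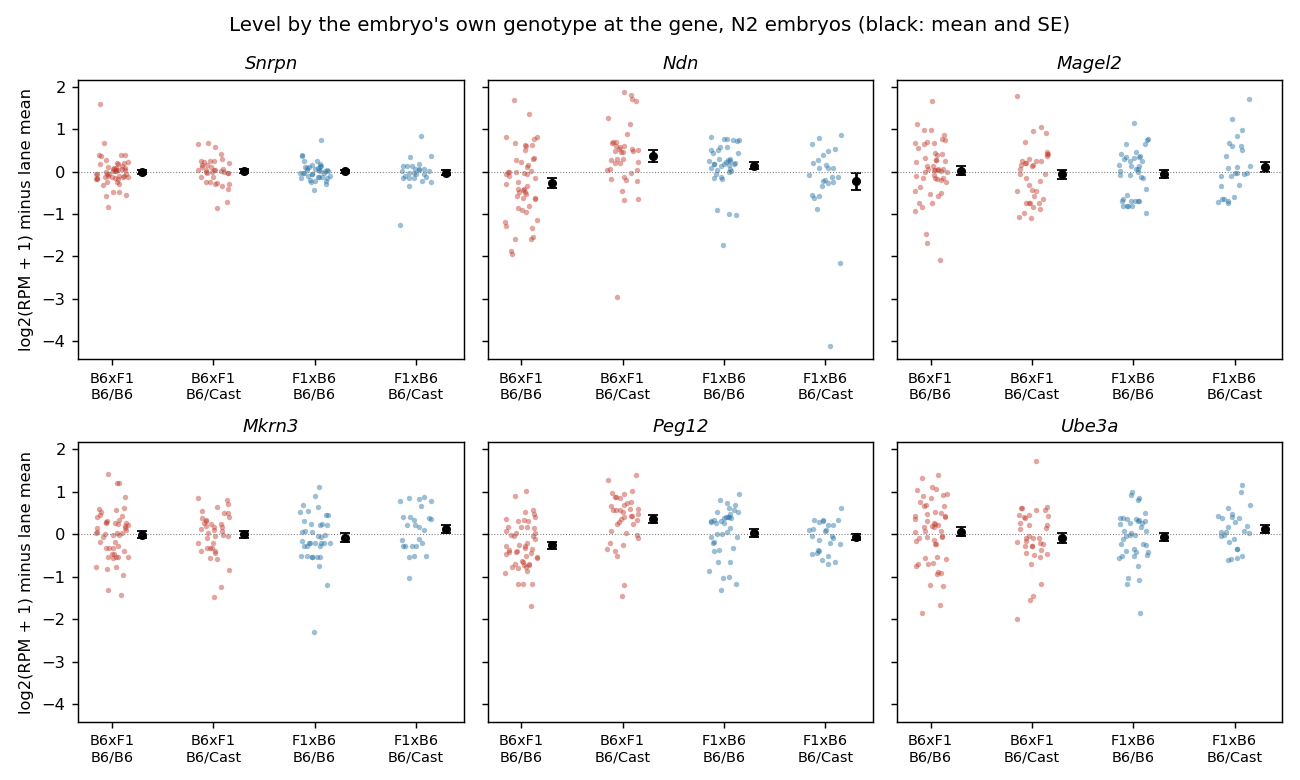
log2(RPM + 1) minus the lane mean for 6 genes in N2 embryos that are B6/B6 or heterozygous (B6/Cast) at the gene, by cross, with the mean and SE in black. Ndn and Peg12 sit higher in heterozygous B6xF1 embryos (red) by 0.63 and 0.62, and lower or level in heterozygous F1xB6 embryos (blue), while Snrpn hardly moves.

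Because all members share nearly the same genotype, with a changed genotype inside the cluster in 1 embryo and genotypes not called from Ndn to Peg12 in 1 other, the comparison was repeated for every gene by the genotype at the cluster, with edgeR on counts and lane in the model. In B6xF1 16 of 9531 genes passed (0.168%), and Peg12 was 3rd by p (log2 0.74 ± 0.12, q = 0.000115). Ndn was 23rd (0.64 ± 0.17, q = 0.100). In F1xB6 2 genes passed (0.021%), Hddc3 and Nosip, and Peg12 and Ndn had -0.16 ± 0.16 and -0.23 ± 0.18. Linked genes elsewhere on chromosome 7 share much of this genotype, so a change with it cannot be assigned to the cluster's own sequence. In the earlier rank-sum test by each gene's own genotype, 16.4% of all genes passed in B6xF1 and 17.3% in F1xB6. Of 8 tested neighbours, 0 passed it in either cross. By that test Peg3 of the other paternally expressed genes fell in B6xF1 embryos heterozygous at Peg3, by 0.69 on the log2 scale. Mest rose by 0.29 in those heterozygous at Mest.

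The genes most like each member over the 154 N2 embryos, on lane-centred log2 levels of 10007 genes, were Tomm70a, Ppp4r2 and Ccar1 for Ube3a (Spearman's rho 0.64 to 0.62), Anapc11, Fibp and Thap3 for Snrpn (0.59 each), and Slc20a1, Ywhab and Bnip3l for Ndn (0.71 to 0.66). For Mkrn3 they were Hspb11, Sh3rf1 and Parp11 (0.55 to 0.53) and for Peg12 Ipo8, Ube2q1 and Dnmt1 (0.60 to 0.59). All values came from the same libraries and share their depth, and no p is given. Among the members, Ndn and Peg12 were the most alike (rho 0.57, with 0.41 in lanes A to I and 0.78 in lanes J to N), and Snrpn had negative values with every other one, from -0.37 with Ube3a to -0.16 with Magel2, although those with Magel2 and Mkrn3 were positive in lanes A to I (0.10 and 0.17).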

How the data were processed

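Counts, votes and genotypes were used as deposited. The authors mapped 3SEQ reads separately to the B6 and Cast genomes (Bowtie2 and mm9 per the submitters' processing notes, version not given in the sources used here) and deposited read counts per gene. The deposited allele votes are estimated counts, since a read over several strain differences is divided among them. Deposited genotype scores give 1 for B6/B6 and 0.5 for heterozygous. F1 values sum 2 runs per embryo, 1 of them on a GAIIx sequencer except in CastxB6 litter 2, where both were on a HiSeq. RPM here is reads per 1000000 counted reads. Tools were edgeR 4.0.16, limma 3.58.1 and DESeq2 1.42.0 in R 4.3.3, with scipy 1.17.1 in Python 3.11.15. A pseudocount of 1, a mean of at least 5 RPM in N2 embryos, 20 votes per F1 cross and 10 votes per N2 embryo were used, with 100000 resamples and Bonferroni 0.01 or Benjamini-Hochberg 0.05. The 8 N2 columns without a mother in the labels and 6 N2 embryos without genotypes were left out. Replicates were grouped by the cross in the labels. The members were always named, with called genes of the other lists. Members and lists were chosen with earlier results of these data known. Methods were tested on simulated data. Sequences and coordinates come from the mm9 genome and GENCODE annotation.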

Additional observations from a re-analysis of the deposited data

Results flagged for a closer look

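Values far from the rest of their group were looked for in 21 groups of 8 or fewer F1 embryos (Dixon's test), and 5 were found; chance flags about 1 in 20 groups of continuous values. That rate does not apply to the 3 allele fractions among the 5, where the other embryos of the cross were all at 0 or all at 1 and a few maternal votes set the value. Snrpn was at 91.7 RPM in 1 embryo of CastxB6 litter 1, with the next lowest at 127 RPM. Ndn was at 470.5 RPM in 1 embryo of B6xCast litter 3, with the next highest at 243 RPM. The B6 allele fraction of Ndn was 0.0118 in 1 B6xCast embryo and 0.970 in 1 CastxB6 embryo, and that of Peg12 was 0.1 in 1 B6xCast embryo, where the others of the cross were at 0 or 1.

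The effect of the embryo's own genotype differed between the N2 crosses for Ndn (1.00 on the log2 scale, permutation p = 9e-05) and Peg12 (0.73, permutation p = 0.00013) among 5 members tested. Over all genes q was 0.173 and 0.147, and both differences were smaller when the litter mean was removed in place of the lane mean (0.64 and 0.47). The unadjusted linear-model p across embryos was then 0.0665 for Ndn, which no longer passed 0.05, and 0.0437 for Peg12.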

How the results depend on the processing

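No paired analysis was possible because the replicate numbers only name embryos and mark no shared litter or batch across crosses. Settings restricted to lane sets or without lane G, lane means and votes per 1000000 reads were chosen after seeing the data. The paternal calls of Snrpn and the absence of a Ube3a call held under all 7 alternatives. The number of imprinting calls was 162, against 16 with the quasi-binomial test and 73 to 185 without 1 litter (73 without B6xCast litter 3). Genes at q under 0.05 in allele fraction between the F1 crosses were 145, against 0 without any one litter, where q was 0.0835 to 0.250 for Snrpn, Ndn, Magel2 and Peg12 with fewer embryos. Members called in N2 allele fraction were 3, or 5 with at least 1 vote, with Snurf counted beside Snrpn (2 and 4 loci). Snrpn's rho with somites turned to 0.21 and 0.20 after lane means were subtracted.

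By mother, 490 genes were called, against 0 with litter means, 212 and 24 in flowcells 1 and 2, 3073 by Benjamini-Hochberg, 323 with all embryos, 1303 in lanes A to I, 1 in lanes J to N and 0 with limma voom and lane as a block. Signs turned for Ndn with litter means (0.17), Ube3a in flowcells 1 and 2 (-0.052, -0.49), lanes A to I (-0.12), lane means (-0.13) and voom (-0.35), Mkrn3 in flowcell 2 (-0.95), lanes J to N (-0.32) and voom (-0.38), Peg12 in flowcell 2 (-0.58) and lanes J to N (-0.0067), and Snrpn in lanes J to N (-0.025); none of these was called.

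By somites, over all lanes 2200 genes were called, against 1150 with lane regressed out, 5180 in B6xF1, 174 with litter means, 934 in lanes J to N and 1279 with lane regressed out in lanes A to I. In F1xB6 rho turned for Ube3a (0.10), Ndn (0.29), Mkrn3 (0.14) and Peg12 (0.16), and with lane regressed out for Ube3a (0.021; 0.00193 in lanes A to I) and Ndn (0.0082 in lanes A to I). The edgeR slope called Peg12 (q = 0.0243), which over all lanes was not called by rank (q = 0.0706).

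By own genotype, 3214 calls became 1980 without lane correction and 203 in lanes J to N, and the calls of Ndn and Peg12 in B6xF1 were lost in lanes J to N (q = 0.347 and 0.198), that of Ndn also without lane correction, with the litter mean subtracted and in edgeR. Uncalled differences turned sign for Mkrn3 in F1xB6 without lane correction (-0.032), Mkrn3 in B6xF1 with litter means subtracted (-0.093) and in lanes J to N (-0.074), Snrpn in F1xB6 in lanes A to I (0.049), in B6xF1 in lanes J to N (-0.042) and with edgeR (-0.0078 in B6xF1 and 0.012 in F1xB6), and Ndn and Peg12 in F1xB6 in lanes J to N (0.15 and 0.013). The 2 calls of a difference between crosses became 0 without lane correction, in lanes J to N and without lane G, 4 with litter means subtracted and 18 in lanes A to I; Mkrn3 turned to 0.14 without lane correction.

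Between F1 crosses, 3788 calls became 1549 in the 2 litters nearest in stage, and 1696 to 6223 without 1 litter. Peg12 turned to 0.022 without TMM and 0.27 in those 2 litters, and Ube3a to -0.066 there and -0.065 by votes. Without 1 litter Peg12 ranged from -0.25 to 0.15, Ube3a from -0.082 to 0.32 and Magel2 from -0.43 to 0.084. Snrpn's call was lost without any one litter (q = 0.0769 to 0.204), and Mkrn3's without TMM (q = 0.0723), with no filter beyond 1 read (0.0612) and without B6xCast litter 3, B6xCast litter 5 or CastxB6 litter 2 (0.0981, 0.186 and 0.560). The cause of these changes was not tested.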
